A study of Mus musculus with 4 samples.

Results

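T cells were found among the CD11b+ cells sorted from mouse MC38 tumors, a gate meant for myeloid cells. They were chosen by RNA: a barcode counted as a T cell when the summed unique molecular identifiers (UMIs, each standing for 1 captured RNA molecule) of Cd3e, Cd3d, Cd3g and Trac reached at least 5 and those of the macrophage complement genes C1qa, C1qb and C1qc reached at most 2. Barcodes entered the count when they showed 200 or more genes and 500 or more UMIs, of which mitochondrial genes took no more than 10%. By this rule 126 of 25333 kept barcodes were T cells: 12 of 15140 in the VISTA KO library and 114 of 10193 in the WT library. The 114 WT cells are described here, and the VISTA KO cells are given by their number.

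The series compared VISTA KO with WT myeloid suppressor cells of tumors; VISTA, the product of Vsir, is an immune checkpoint of myeloid and T cells. VISTA KO and WT bone marrow (strain C57/BL6) was used to make chimeric mice, which received MC38 colon carcinoma cells after 6 weeks, and tumors were taken at a diameter of 9 to 10 mm. Tumors were pooled, CD45.1 and CD45.2 told VISTA KO from WT cells, and viable CD11b+ cells entered droplets for 3′ RNA sequencing with antibody tags for CD11c, Ly6G and Ly6C. Each group held 1 gene expression library and 1 tag library, so there was no replicate and no p-value is given. All intervals are exact 95% intervals, which cover counting error only. The irradiation, age and sex of the hosts, the number of tumors pooled, the deleted part of Vsir and which CD45 allele marked which genotype were not stated in the labels used here.

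Tumor-infiltrating T cells fall into CD8 cells, which kill target cells with granzymes and perforin, and CD4 cells, which include helper cells and regulatory T cells. Regulatory T cells depend on the transcription factor FOXP3, take up interleukin 2 through the high-affinity receptor chain CD25 (Il2ra) and restrain other lymphocytes, in part through CTLA-4. T cells under lasting stimulation in tumors gain inhibitory receptors such as PD-1, TIM-3, LAG-3 and TIGIT together with the factor TOX, a state called exhaustion.

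In all, 15257 VISTA KO barcodes carried 80366761 UMIs and 10241 WT barcodes carried 61753547, and 99.2% of the VISTA KO and 99.5% of the WT barcodes were kept. The median depth of kept barcodes was 4212.5 UMIs in the VISTA KO library and 4692 in the WT library. Vsir (GRCm38.p6 chromosome 10, 60346851 to 60430294) checked the labels. Its summed UMIs, scaled to 1000000 UMIs of the class (CPM), came to 46.2 CPM over the kept VISTA KO barcodes (44.7 to 47.7), against 137 CPM over the kept WT barcodes (134 to 139). The libraries shared 46 kept barcode sequences, and 0 of the 114 WT T cell barcodes were among them.

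T cells made up 0.0793% of the kept VISTA KO barcodes (12 cells, 0.0410% to 0.138%) and 1.12% of the kept WT barcodes (114 cells, 0.923% to 1.34%), a ratio of 0.0709. The choice of these cells used the same numbers, so the ratio is a description. Among barcodes with at most 2 C1q UMIs the T cell share was 0.187% of 6432 in the VISTA KO library (0.0964% to 0.326%), against 1.90% of 6007 in the WT library (1.57% to 2.28%). Natural killer (NK) cells, chosen by at least 3 summed UMIs of Ncr1, Klrb1c and Klre1, numbered 294 in the VISTA KO library (1.94%, 1.73% to 2.17%) and 404 in the WT library (3.96%, 3.59% to 4.36%), a ratio of 0.490. With 1 library per group, genotype and library cannot be told apart as the origin of these differences.

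Of the 12 VISTA KO T cells 5 lay exactly on a limit of the rule, with 5 T marker or 2 C1q UMIs, against 14 of the 114 WT T cells. With at least 10 T marker UMIs 7 VISTA KO and 81 WT cells remained, and with 0 C1q UMIs 4 VISTA KO and 77 WT cells. With at most 2 C1q UMIs, 2 VISTA KO and 6 WT barcodes had exactly 4 T marker UMIs and fell just outside, while 2 VISTA KO and 8 WT barcodes had exactly 5 and fell just inside. At least 5 T marker UMIs but more than 2 C1q UMIs were found in 2 VISTA KO and 16 WT barcodes, which were left out as droplets that also held macrophage RNA.

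**Figure D1:**
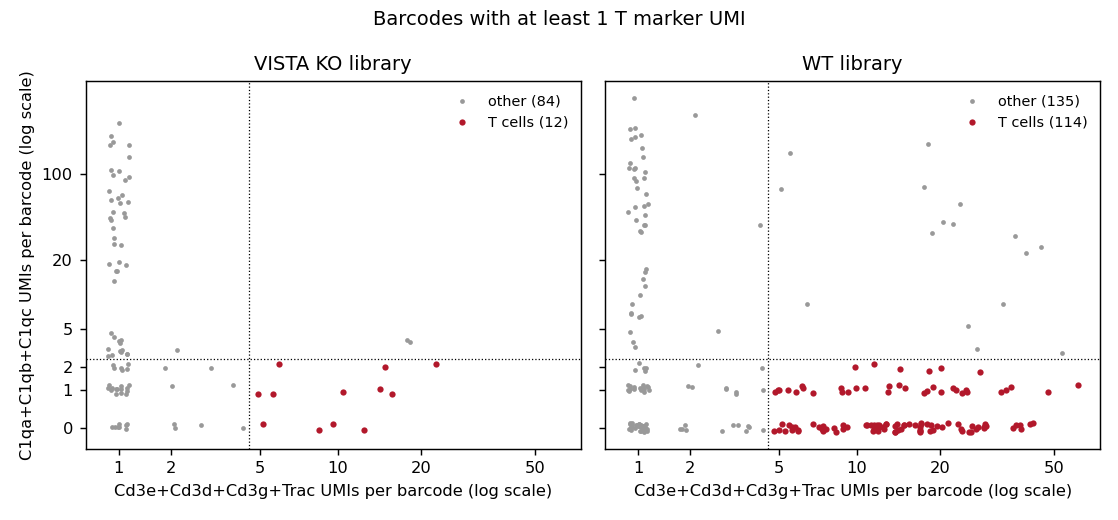
Summed T marker UMIs (x axis, log scale) against summed C1q UMIs (y axis, log scale) in each kept barcode with at least 1 T marker UMI, VISTA KO library at left and WT library at right; points are spread slightly to separate ties and dotted lines mark the rule. The 12 VISTA KO and 114 WT T cells (red) lie in the lower right field, with 16 further WT barcodes above the C1q limit.

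The WT cells carried the genes of their label, T cells, although GEO labels the whole sample as myeloid suppressor cells. Trbc1 or Trbc2, which encode the beta constant chains of the T cell receptor and were not used by the rule, had a UMI in 105 of 114 cells, and a UMI of Cd5 or Cd6, surface receptors that tune T cell receptor signals, in 88. Cd5, which the rule did not use, stood at 237 CPM in T cells and 0.766 CPM in NK cells, from 132 and 1 UMIs. Trbc2 stood at 1061 CPM in T cells and 123 CPM in NK cells. Trbc1 stood at 363 CPM in T cells and 370 CPM in NK cells, so a UMI of either gene does not by itself tell the classes apart. Trbc1 and Trbc2 are near-identical, as are members of the granzyme, Klra, Ly6c and Ccl3/Ccl4 families. How the counting treated reads that match several of these genes was not tested, so their single values are uncertain. Of 18 genes of signalling just below the receptor, 16 reached a minimum of 50 UMIs over T and NK cells, and 6 stood at least 2-fold higher in T cells (Lat, Lcp2, Cd2, Cd5, Cd6 and Cd28) and 2 lower (Prkcq and Txk). Over all 4350 genes at that minimum, 6.62% stood at least 2-fold higher and 6.37% lower in T cells. These shares are the background of every list count against NK cells below. Lat, the adaptor that carries the receptor signal into the cell, stood at 248 CPM in T cells and 29.1 CPM in NK cells. Gamma-delta receptor RNA was rare: Trdc was found in 4 T cells, with 7 UMIs in the highest.

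The T cells were of moderate depth, with a median of 3676 UMIs (quartiles 2565 and 5620, range 638 to 18682) and 1450.5 genes. NK cells had a median of 2462.5 UMIs and droplets with at least 10 C1q UMIs, called C1q-high here and used as the type that should lack T cell genes, had 7963. The median mitochondrial share was 0.898% in T cells, 0.866% in NK cells and 0.790% in C1q-high droplets. No doublet caller was run, and RNA of other cells was present: Lyz2, a lysozyme gene of myeloid cells, averaged 1135 CPM in T cells, with 7 cells at 20 or more UMIs and 52 cells at 0. Without those 7 cells Lyz2 stood at 226 CPM. Its level in the other classes was 977 CPM in NK cells and 6144 CPM in C1q-high droplets, and the part of such RNA in the results below was not tested.

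The lineage genes left most cells unassigned at this depth. A UMI of Cd8a or Cd8b1, the chains of the CD8 co-receptor, without Cd4 was found in 16 cells (14.04%, 8.24% to 21.8%), and a UMI of Cd4 without either in 40 (35.1%, 26.4% to 44.6%). No cell had both (exact interval 0% to 3.18%), and 58 had neither. All 16 CD8 cells had Cd8b1, with 1 to 10 UMIs and a median of 2, but Cd8a was found in only 5 of them. Cd4 was found in 0.308% of C1q-high droplets, Cd8b1 in 0.0617% and Cd8a in 0.0308%, so the background of these genes was low. Thinned to 1000 UMIs per cell, the share with Cd4 was 10.7% of 112 T cells and 0.249% of 402 NK cells.

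The main feature of the WT T cells was a regulatory T gene set. Foxp3 (GRCm38.p6 chromosome X, 7579676 to 7595243) had a UMI in 52 of 114 T cells (45.6%, 36.3% to 55.2%), against 1 of 404 NK cells (0.248%) and 9 of 3244 C1q-high droplets (0.277%), at the depths above. Thinned to 1000 UMIs, the Foxp3 share was 12.5% in T cells, 0% in NK cells and 0.0310% in C1q-high droplets. Summed over cells, Foxp3 stood at 174 CPM in T cells (141 to 213) and 0.766 CPM in NK cells (0.0194 to 4.27), a ratio of 228 with an interval of 39.9 to 9082. Per cell it was found at 0 to 5 UMIs with a median of 0.

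The promoters of Foxp3 and of 2 other regulatory T genes, Il2ra and Ctla4, are shown because RNA of all 3 was found in many of the same cells. Each window is 300 bases long, 250 before and 50 after the annotated start, from RefSeq on GRCm38.p6, on the plus strand; capitals mark GGAAA, the core that NFAT factors bind in T cells, or its reverse complement TTTCC.
Foxp3, chrX:7579426-7579725: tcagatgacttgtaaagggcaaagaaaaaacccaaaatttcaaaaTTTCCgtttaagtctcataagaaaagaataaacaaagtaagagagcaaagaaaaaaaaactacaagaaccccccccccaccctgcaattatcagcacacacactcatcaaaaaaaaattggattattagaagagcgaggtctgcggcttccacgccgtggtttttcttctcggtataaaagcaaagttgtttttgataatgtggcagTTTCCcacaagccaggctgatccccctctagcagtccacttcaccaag
Il2ra, chr2:11642542-11642841: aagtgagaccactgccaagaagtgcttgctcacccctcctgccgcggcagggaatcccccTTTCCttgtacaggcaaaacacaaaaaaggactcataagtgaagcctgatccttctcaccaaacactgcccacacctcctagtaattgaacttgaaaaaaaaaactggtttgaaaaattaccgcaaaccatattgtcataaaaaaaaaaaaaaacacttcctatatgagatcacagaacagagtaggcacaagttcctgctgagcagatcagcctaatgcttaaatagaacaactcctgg
Ctla4, chr1:60908775-60909074: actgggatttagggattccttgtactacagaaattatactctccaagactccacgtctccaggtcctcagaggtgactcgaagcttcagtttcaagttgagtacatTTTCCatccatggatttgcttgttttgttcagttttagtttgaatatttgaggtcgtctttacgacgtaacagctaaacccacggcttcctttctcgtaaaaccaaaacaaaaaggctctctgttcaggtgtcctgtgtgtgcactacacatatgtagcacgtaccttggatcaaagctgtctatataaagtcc

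GGAAA was searched on both strands and found 2 times in the Foxp3 window shown, 1 time in the Il2ra window and 1 time in the Ctla4 window. A second Foxp3 start has its own window (chromosome X, 7580233 to 7580532), not shown, with 1 match to GGAAA and 1 to the STAT core TTCNNNGAA. RefSeq gave 10 windows for 9 of the 12 regulatory T genes, of which 8 held GGAAA, against 61.5% of all 32544 windows. The STAT core was in 2 of the 10 windows against 8.33% of all, and the RUNX core TGTGGT in 1 against 16.7%. These matches are descriptions of the sequence and were not tied to binding.

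Il2ra (CD25) stood at 432 CPM in T cells (379 to 490) and 2.30 CPM in NK cells (0.474 to 6.72), a ratio of 188 with an interval of 63.5 to 917. Ctla4 stood at 930 CPM in T cells and 17.6 CPM in NK cells, and Ikzf2, the Helios factor of many regulatory T cells, at 602 CPM in T cells and 21.5 CPM in NK cells. Tnfrsf4 (OX40), a costimulatory receptor, stood at 2414 CPM in T cells and 3.07 CPM in NK cells, a ratio of 787 with an interval of 307 to 2894. OX40 RNA was thus found in 94 of 114 T cells and in 4 of 404 NK cells. Tnfrsf18 (GITR) stood at 1372 CPM in T cells and 183 CPM in NK cells. Izumo1r, the folate receptor 4 gene of regulatory T cells, had 89 UMIs in T cells and 0 in NK cells, at least 69.6-fold higher in T cells against a floor of 3 counts.

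Per cell, Tnfrsf4 was found at 0 to 50 UMIs with a median of 8, Tnfrsf18 at 0 to 23 with a median of 6, and Ctla4 at 0 to 28 with a median of 3. Ikzf2 was found at 0 to 12 UMIs with a median of 2 and Il2ra at 0 to 12 with a median of 1. None of these 5 genes rested on a few cells, since the 5 highest cells held between 13.1% (Tnfrsf18) and 22.6% (Ctla4) of a gene's UMIs.

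The weaker members of the list were Ikzf4, with 28 UMIs in 19 T cells, Lrrc32, with 20 UMIs in 14, Nrp1, with 9 UMIs in 8, and Ccr8, with 2 UMIs in 2. Gpr83 had 0 UMIs in T cells, which allows up to 5.40 CPM (3 counts). Of the 12 regulatory T genes, 7 reached the minimum of 50 UMIs over T and NK cells, and all 7 stood at least 2-fold higher in T cells, against the 6.62% of all genes given above. The median log2 ratio of the 7 was 6.85 (6.12 with genes at 0 put at the floor), against 0.06 over the 4350 genes. Members reach the minimum through the class in which they are high, so these counts describe the list only.

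Most single cells carried several of these genes. A UMI of at least 4 of the 12 genes was found in 87 of 114 T cells (76.3%, 67.4% to 83.8%). The number was 0 of 404 NK cells (exact interval 0% to 0.909%) and 14 of 3244 C1q-high droplets (0.432%). The most frequent numbers were 5, 6 and 7 genes, in 21, 24 and 21 T cells, and 4 T cells had none. Near the limit, 6 cells had 3 genes and 12 cells had 4. Thinned to 1000 UMIs, at least 2 of the genes were found in 71.4% of 112 T cells, 0.995% of 402 NK cells and 0.371% of 3231 C1q-high droplets. The limit of 4 genes was set after the values were seen, so it splits a range and names no cell type. Foxp3 was found in 52 of the 87 cells. Ctla4, Tnfrsf4, Tnfrsf18 and Il2ra also stand on the lists of inhibitory receptors or of costimulation and activation genes. Without Ctla4, Tnfrsf4 and Tnfrsf18, at least 2 of the other genes were found in 81 of 114 T cells (71.1%, 61.8% to 79.2%).

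**Figure D2:**
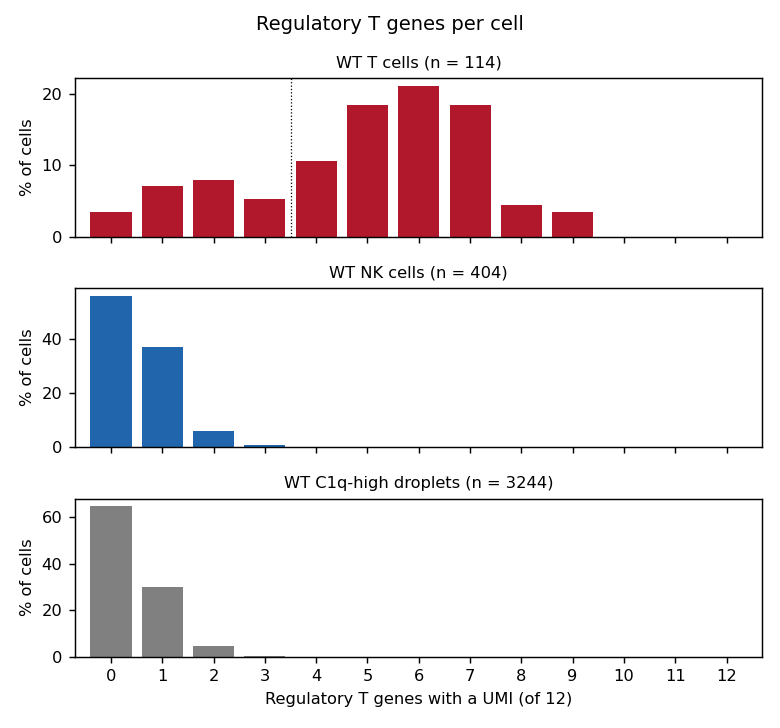
Number of the 12 regulatory T genes with a UMI in each cell (x axis) and share of cells (y axis, %; scales differ between panels) for WT T cells, NK cells and C1q-high droplets; the dotted line marks the limit of 4 genes. The T cells peak at 6 genes (24 of 114 cells), whereas 0 of 404 NK cells reach 4.

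The genes overlapped in the same cells and across the lineage classes. Foxp3 and Il2ra were found together in 44 cells, Foxp3 and Ctla4 in 41, and Foxp3 or Il2ra in 80. At least 4 regulatory T genes were found in 9 of 16 CD8 cells (56.3%, 29.9% to 80.2%), 31 of 40 CD4 cells (77.5%, 61.5% to 89.2%) and 47 of 58 cells with neither (81.0%, 68.6% to 90.1%). Foxp3 itself was found in 4 of 16 CD8 cells, 21 of 40 CD4 cells and 27 of 58 cells with neither. The CD8 values rest on cells at the limit of the class: all 6 cells called CD8 by 1 UMI had at least 4 regulatory T genes and 4 of them had Foxp3, whereas of the 10 with 2 or more UMIs 3 had at least 4 and 0 had Foxp3 (exact interval 0% to 30.8%). Of the 10 CD4 cells with 2 or more Cd4 UMIs, 6 had at least 4 and 5 had Foxp3. Of the 5 cells with Cd8a, 0 had Foxp3 and 2 had at least 4 regulatory T genes. The intervals of the CD8 and CD4 shares overlap at these cell numbers.

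Costimulatory and helper factor genes stood both ways, where 6.62% of all 4350 genes stood at least 2-fold higher than in NK cells and 6.37% lower. Of 14 costimulation and activation genes, 13 reached the minimum, and 7 stood at least 2-fold higher and 2 lower in T cells than in NK cells (median log2 ratio 1.26). Icos, a costimulatory receptor related to CD28, stood at 665 CPM in T cells and 20.7 CPM in NK cells. Tnfrsf9 (4-1BB) stood at 953 CPM in T cells and 383 CPM in NK cells, and Cd28 at 203 CPM in T cells and 22.2 CPM in NK cells. The 2 lower genes were Il2rb, the interleukin 2 receptor beta chain, with a log2 ratio of -1.26, and Slamf7, with -2.20.

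Among 10 helper lineage factors, 7 reached the minimum, with 4 at least 2-fold higher and 2 lower in T cells. Besides Foxp3, the higher ones were Rora at 110 CPM in T cells and 2.30 CPM in NK cells, Maf at 532 and 54.4 CPM, and Gata3 at 106 and 50.6 CPM. The lower ones were Tbx21, the T-bet factor of type 1 cells, at 16.2 CPM in T cells and 96.6 CPM in NK cells, and Stat4, which acts downstream of interleukin 12. The cytokine genes Il17a and Il4 had 0 UMIs in T cells, each allowing up to 5.40 CPM. Maf is also high in macrophages and stood at 344 CPM in C1q-high droplets.

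Of 8 marker genes of type 2 innate lymphoid cells (ILC2), some of which regulatory T cells of tissues also express, 3 reached the minimum. All 3 stood at least 2-fold higher in T cells, Gata3, Rora and Areg (median log2 ratio 5.18), against 6.62% of all 4350 genes. Rora and Areg reached the minimum through their UMIs in T cells, so this count describes the list only. Areg, a growth factor of the EGF family, stood at 89.9 CPM in T cells, from 50 UMIs in 14 cells, and 0.766 CPM in NK cells. Il1rl1, the interleukin 33 receptor, had 17 UMIs in 14 T cells and 0 in NK cells. Of the cytokine genes on the list, Il13 had 1 UMI and Il5 0 in T cells. Il10, an inhibitory cytokine, had 18 UMIs in 12 T cells and 0 in NK cells. All 18 Il10 UMIs lay in cells with at least 4 regulatory T genes, a class that held 76.3% of all T cells.

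**Figure D3:**
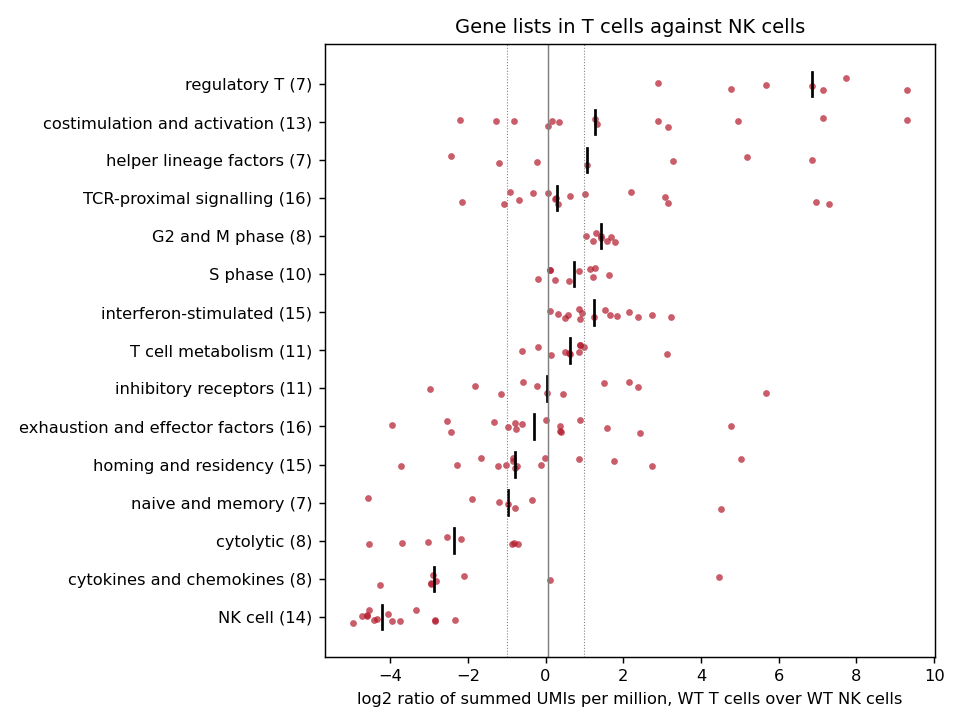
log2 ratio of summed UMIs per 1000000, WT T cells over WT NK cells, for the members of each gene list that reached 50 UMIs (points; number in brackets) with the list median (bar); the grey line marks the median of all 4350 genes, 0.06, and dotted lines 2-fold. The regulatory T list has the highest median, 6.85, and the NK list the lowest, -4.20.

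Effector genes were spread unevenly over the T cells. Gzmb, the granzyme B protease that also arms regulatory T cells in mouse tumors, was found in 93 of 114 T cells (81.6%) and 4.66% of C1q-high droplets, with 0 to 80 UMIs per T cell and a median of 12. Its level was 3248 CPM in T cells (3100 to 3401) and 5315 CPM in NK cells (5190 to 5441). Foxp3 and Gzmb were found together in 50 cells, that is in 50 of the 52 cells with Foxp3. Gzmb was therefore carried by most of the cells with the regulatory gene.

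Gzma, granzyme A, was carried by few cells. It stood at 799 CPM in T cells and 18639 CPM in NK cells, and the 5 highest T cells held 96.8% of its T cell UMIs. The highest had 155 and 148 UMIs, and the median was 0. All 4 cells with at least 30 Gzma UMIs had 3 or fewer regulatory T genes, and 3 of the 4 also had a UMI of Ncr1, Klrb1c or Klre1. Of the 114 T cells, 9 had such an NK UMI. In 5 of them the sum reached 3 or more, as in the NK cells, and only the T marker UMIs set these 5 apart from NK cells. Leaving out the 9 cells brought Gzma to 93.5 CPM. Prf1, the pore-forming perforin gene, then stood at 22.4 CPM, against 124 CPM in all T cells and 1633 CPM in NK cells. The Gzma, Prf1 and Gzmc levels of the T cells thus rest on these 9 cells.

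Across 14 cytolytic genes, 8 reached the minimum, and 0 stood at least 2-fold higher and 5 lower in T cells than in NK cells (median log2 ratio -2.36). Nkg7, a granule membrane gene, stood at 556 CPM in T cells and 3241 CPM in NK cells. Of 25 cytokine and chemokine genes, 8 reached the minimum, with 1 at least 2-fold higher and 6 lower. The higher one was Ltb, lymphotoxin beta, at 838 CPM in T cells and 37.6 CPM in NK cells. Ccl5, a chemokine of cytotoxic cells, stood at 1489 CPM in T cells and 11188 CPM in NK cells. Ifng, interferon gamma, had 22 UMIs in 8 T cells (39.6 CPM) and stood at 316 CPM in NK cells, and all 8 of those T cells had 3 or fewer regulatory T genes. Il2 had 0 UMIs in T cells and Tnf 5.

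Exhaustion genes were found in a minority of cells. Pdcd1 (PD-1) had a UMI in 15 of 114 T cells (13.2%; 0.647% of C1q-high droplets), Lag3 in 24 (21.1%; 0.586%), Tigit in 12 (10.5%; 0.0617%) and Tox in 24 (21.1%; 0.247%). Havcr2 (TIM-3) was found in 27 T cells (23.7%), but myeloid cells carry it too and 38.6% of C1q-high droplets had a UMI, and these droplets are deeper. Thinned to 1000 UMIs, Havcr2 was found in 8.93% of T cells, 0.995% of NK cells and 6.16% of C1q-high droplets, and the source of the UMIs in T cells was not tested. At least 2 of Pdcd1, Havcr2, Lag3 and Tigit were found in 18 cells (15.8%, 9.63% to 23.8%) and none in 62. Pdcd1 and Havcr2 were found together in 7 cells. Per cell, Pdcd1 reached 5 UMIs at most.

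Against NK cells the inhibitory receptors stood both ways, where 6.62% of all 4350 genes stood at least 2-fold higher and 6.37% lower. Of 16, 11 reached the minimum, with 4 at least 2-fold higher (Ctla4, Havcr2, Lag3 and Vsir), 3 lower (Cd244a, Klrc1 and Lair1) and a median log2 ratio of 0.04. Lag3 stood at 101 CPM in T cells (76.1 to 131) and 22.2 CPM in NK cells (14.9 to 31.9). Pdcd1, with 27 UMIs in T cells and 1 in NK cells, did not reach the minimum. Vsir, the gene the series is about, had 59 UMIs in 41 T cells and stood at 106 CPM in T cells (80.8 to 137), 37.6 CPM in NK cells (27.8 to 49.7) and 148 CPM in C1q-high droplets. Since 65.7% of C1q-high droplets carried Vsir, and 36.0% of T cells, Vsir RNA from macrophages in the T cell droplets was not tested.

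Of 20 exhaustion and effector factors, 16 reached the minimum. Of these, 3 stood at least 2-fold higher (Ikzf2, Batf and Hif1a) and 4 lower (Eomes, Irf8, Tbx21 and Zeb2). Over all 4350 genes the shares were 6.62% higher and 6.37% lower. Batf, an AP-1 factor of activated T cells, stood at 155 CPM in T cells and 28.4 CPM in NK cells, and Hif1a, the oxygen-sensing factor, at 631 and 209 CPM. Eomes, a factor of cytotoxic lymphocytes, stood at 14.4 CPM in T cells and 250 CPM in NK cells. Tox stood at 57.6 CPM in T cells and 13.03 CPM in NK cells.

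Naive and recirculating features were scarce. Ccr7, a chemokine receptor of T cells that travel through lymph nodes, had 18 UMIs in 4 T cells. Tcf7, a factor of naive and stem-like T cells, had 6 UMIs in all 114 cells. Of 13 naive and memory genes 7 reached the minimum, with 1 at least 2-fold higher in T cells than in NK cells, Il7r (173 CPM in T cells, 6.90 CPM in NK cells), and 3 lower, Klf2, Satb1 and Bcl2. Bcl2, a survival gene, stood at 14.4 CPM in T cells and 381 CPM in NK cells.

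Of 21 homing and residency genes, 15 reached the minimum, with 3 at least 2-fold higher in T cells than in NK cells, Cxcr6, Ly6a and Cxcr3, and 5 lower, Itga4, Itgb1, Itgam, Itgax and Rgs1 (median log2 ratio -0.77). Cxcr6, a receptor of tissue T cells, stood at 122 CPM in T cells and 3.07 CPM in NK cells, and Cxcr3 at 79.1 and 23.0 CPM. Itgae, the alpha chain of the CD103 integrin, had 29 UMIs in 22 T cells and 1 in NK cells. Of its T cell UMIs 0 lay in cells with 3 or fewer regulatory T genes, which made up 23.7% of the T cells. Itgam, which encodes the CD11b of the sort, was found in 25 T cells (21.9%) at 73.7 CPM, against 175 CPM in NK cells and 542 CPM in C1q-high droplets, where 89.8% had a UMI.

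Interferon-stimulated genes and a polyamine enzyme stood higher in T cells than in NK cells. Over all 4350 genes, 6.62% stood at least 2-fold higher and 6.37% lower. Of 15 interferon-stimulated genes all reached the minimum, with 8 at least 2-fold higher and 0 lower in T cells than in NK cells (median log2 ratio 1.23). Ifi27l2a stood at 12572 CPM in T cells and 1340 CPM in NK cells, and Ifit3 at 309 and 59.0 CPM. Their levels in C1q-high droplets were 6587 CPM for Ifi27l2a and 519 CPM for Ifit3. The 15 genes summed to 21226 CPM in T cells, 4335 CPM in NK cells and 18338 CPM in C1q-high droplets. In all kept WT barcodes that were not T cells they summed to 17697.5 CPM, so the list was low in NK cells rather than particular to T cells. Odc1, the first enzyme of polyamine synthesis, stood at 678 CPM in T cells, 76.6 CPM in NK cells and 58.2 CPM in C1q-high droplets, and its log2 ratio over NK cells, 3.13, was the highest of the 11 metabolism genes at the minimum. Of these 11, 2 stood at least 2-fold higher and 0 lower.

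The 12 genes highest in T cells over NK cells, mitochondrial, ribosomal, unnamed and rule genes aside, were Tnfrsf4, Izumo1r, Cd5, Il2ra, Igkc, Cd6, Foxp3, Sdcbp2, Cd4, Areg, Ctla4 and Igflr1. The 12 lowest were Car2, Cma1, Gas7, Clnk, Klra9, Styk1, Klrb1f, Pde2a, Adamts14, Klra4, Klra1 and Ncr1, among them 3 Ly49 receptor genes (Klra) and the NKp46 gene Ncr1. The 14 NK genes that reached the minimum all stood at least 2-fold lower in T cells, which the choice of the NK cells fixed in part. Markers of other cell types are given beside these: of 5 macrophage genes at the minimum 1 (Apoe) and of 9 monocyte genes 1 (Chil3) stood at least 2-fold lower in T cells and 0 higher. The summed level of the 12 macrophage genes was 441 CPM in T cells, 696 CPM in NK cells and 16632 CPM in C1q-high droplets. That of the 10 monocyte genes was 5922 CPM in T cells, 5216 CPM in NK cells and 21801 CPM in C1q-high droplets.

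Igkc, the immunoglobulin kappa constant gene of B cells, had 58 UMIs in 17 T cells and 0 in NK cells. Cd79a, Ms4a1, Jchain and Mzb1, which mark B and plasma cells, had 0 UMIs in T cells. All 17 cells with Igkc had at least 4 regulatory T genes, as did 76.3% of all T cells. Igkc was found in 0.647% of C1q-high droplets. Ighm stood at 158 CPM in T cells and 58.3 CPM in NK cells. The origin of this RNA was not tested. Of 10 dendritic cell genes, H2-Aa and H2-Ab1, which encode MHC class II chains, reached the minimum and stood at least 2-fold higher in T cells, with 0 UMIs of the whole list in 73 of 114 cells.

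The 16 CD8 cells were set beside the 40 CD4 cells, on sums of 74009 and 235722 UMIs. With the lineage genes fixing the classes, 114 of 2235 genes with at least 20 UMIs (5.1%) stood at least 2-fold higher and 136 (6.09%) lower in CD8 cells. The higher ones with the largest ratios were Cd8b1, Cd8a, Gzma, Klrd1, Serpinb9, Nkg7, Ccl4 and Serpinb6b. Klrd1, the CD94 chain of an NK-type receptor, stood at 946 CPM in CD8 cells and 67.9 CPM in CD4 cells, a ratio of 13.9 with an interval of 8.01 to 25.7. Serpinb9, an inhibitor of granzyme B, stood at 365 CPM in CD8 cells and 33.9 CPM in CD4 cells. Nkg7 stood at 1419 CPM in CD8 cells and 153 CPM in CD4 cells, and Ccl5 at 4391 and 738 CPM.

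The lower ones were AA467197, Cd4, Ube2c, Neat1, Prdx4, Birc2, Eif4g3 and Tnik. Of the cytolytic genes, 5 reached the minimum, with 3 at least 2-fold higher and 0 lower in CD8 cells. Gzmb did not differ by 2-fold, at 3446 CPM in CD8 cells and 2885 CPM in CD4 cells. The 5 highest CD8 cells held 76.1% of the CD8 Gzmb UMIs, with 72, 43 and 31 in the highest. The cells with 43 and 31 had 1 Cd8b1 UMI and 7 regulatory T genes each. The likeness thus rests in part on cells at the limit of the class. Pdcd1 stood at 122 CPM in CD8 cells, from 9 UMIs in 4 cells, and 59.4 CPM in CD4 cells, from 14 UMIs in 7. Of 7 regulatory T genes 1 stood at least 2-fold lower in CD8 cells and 0 higher: Foxp3, at 67.6 CPM in CD8 cells, all of it in cells with 1 Cd8b1 UMI, and 199 CPM in CD4 cells. Of 6 inhibitory receptors at the minimum, 2 stood at least 2-fold higher in CD8 cells, Pdcd1 and Lag3, and 0 lower. Of 10 exhaustion and effector factors, 2 did, Prdm1 (log2 ratio 1.41) and Rgs16 (2.60), and 0 stood lower. Il7r, the interleukin 7 receptor, stood at 27.0 CPM in CD8 cells and 182 CPM in CD4 cells. With so few cells 1 cell can carry a gene: 5 of the 16 CD8 cells held 86.8% of their Ccl5 UMIs, and 1 held 32 of the 38 Gzma UMIs. Of 10 G2 and M phase genes, 6 stood at least 2-fold lower in CD8 cells and 0 higher. Cycling were 1 of 16 CD8 and 8 of 40 CD4 cells, and the part of depth in this difference was not tested.

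The 27 cells with 3 or fewer regulatory T genes were set beside the 87 with 4 or more, a split chosen after the values were seen. Their median depths were 3617 and 3704 UMIs, and Cd8b1 was found in 7 and 9 of them, Cd4 in 9 and 31. Of 3680 genes with at least 20 UMIs, 154 (4.18%) stood at least 2-fold higher and 373 (10.1%) lower in the cells with 3 or fewer. Among the 7 cytolytic genes at the minimum, 5 stood at least 2-fold higher (Gzma, Ctsw, Gzmc, Prf1 and Nkg7) and 1, Gzmb, lower. Gzmb stood at 958 CPM in cells with 3 or fewer and 4034 CPM in cells with 4 or more. Nkg7 stood at 1239 CPM in cells with 3 or fewer and 321 CPM in cells with 4 or more.

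NK genes moved with these: the 4 genes of the NK list at the minimum all stood at least 2-fold higher in cells with 3 or fewer (median log2 ratio 3.50), and the list summed to 4929 CPM in cells with 3 or fewer and 642 CPM in cells with 4 or more. Of the 27 cells with 3 or fewer, 6 had an NK UMI and held 385 of the 423 Gzma UMIs and 46 of the 49 Prf1 UMIs. Without cells that had an NK UMI, an alternative chosen after seeing the data, 21 cells with 3 or fewer and 84 with 4 or more were left, and 5.01% of 3395 genes stood at least 2-fold higher and 10.8% lower. Of 6 cytolytic genes 3 (Gzma, Nkg7 and Ctsw) then stood at least 2-fold higher and 2 (Gzmb and Gzmc) lower, so Gzmc turned its direction, with 0 UMIs in the cells with 3 or fewer and 25 in those with 4 or more. Nkg7 then stood at 932 CPM in cells with 3 or fewer and 229 CPM in cells with 4 or more, and Gzma at 354 and 20.8 CPM. A single cell held 32 of the 38 Gzma UMIs left in the cells with 3 or fewer, so the Gzma difference rests on that cell.

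Ctsw, a cathepsin of killer lymphocytes, stood at 211 CPM in cells with 3 or fewer regulatory T genes and 16.9 CPM in cells with 4 or more. Cxcr6 stood at 366 CPM in cells with 3 or fewer, where 16 of 27 cells had it, and 38.7 CPM in cells with 4 or more, where 6 of 87 did. Xcl1, a chemokine for cross-presenting dendritic cells, had 33 UMIs in 4 cells with 3 or fewer, 30 of them in cells with an NK UMI, and 0 in cells with 4 or more. The 8 genes with the largest ratios upward were Xcl1, Klra7, Ifng, Gzma, Serpinb1a, Ctsw, Cxcr6 and Ly6i. Klra7, an NK receptor gene, had 25 UMIs in 5 cells with 3 or fewer, all in cells with an NK UMI, and 0 in the others, and Ncr1 had 10 UMIs in 2 cells with 3 or fewer and 1 in the others.

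Of 7 cytokine and chemokine genes, 5 stood at least 2-fold higher in cells with 3 or fewer (Ifng, Ccl3, Ccl4, Ccl5 and Xcl1) and 0 lower; without cells that had an NK UMI, 2 of the 5 at the minimum did, Ccl3 and Ccl5, and Ifng, below the minimum, had 17 UMIs in cells with 3 or fewer and 0 in cells with 4 or more. Ccl5 stood at 4028 CPM in cells with 3 or fewer and 618 CPM in cells with 4 or more (2648 and 590 CPM without those cells). Per cell, Ifng reached 8 UMIs in cells with 3 or fewer, and Gzma reached 155 UMIs in cells with 3 or fewer and 13 in cells with 4 or more.

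The 8 genes with the largest ratios downward were Mt1, Foxp3, Il2ra, Igkc, Ikzf2, Arl5c, Ctla4 and Mt2, of which 4 defined the split. Mt1, a metallothionein that binds zinc, had 1 UMI in cells with 3 or fewer regulatory T genes and 262 UMIs in 28 of the cells with 4 or more, a ratio of 0.0111 with an interval of 0.000281 to 0.0625. Mt1 also stood at 459 CPM in C1q-high droplets. Mt2 had 0 UMIs in cells with 3 or fewer and 33 in cells with 4 or more. Klrg1, a receptor of highly activated cells, stood at 14.1 CPM in cells with 3 or fewer and 159 CPM in cells with 4 or more. Icos stood at 134 CPM in cells with 3 or fewer and 848 CPM in cells with 4 or more. Of 7 inhibitory receptors, 0 stood at least 2-fold higher in cells with 3 or fewer and 2 lower, Klrg1 and Ctla4, of which Ctla4 is one of the genes that define the split. Without it 1 of 6 stood lower. Pdcd1, at 70.4 CPM in cells with 3 or fewer and 41.1 CPM in cells with 4 or more, and Lag3, at 91.5 and 104 CPM, lay within 2-fold. Of the 15 interferon-stimulated genes 0 stood at least 2-fold higher and 4 lower (Isg15, Ifi27l2a, Irf7 and Isg20).

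**Figure D4:**
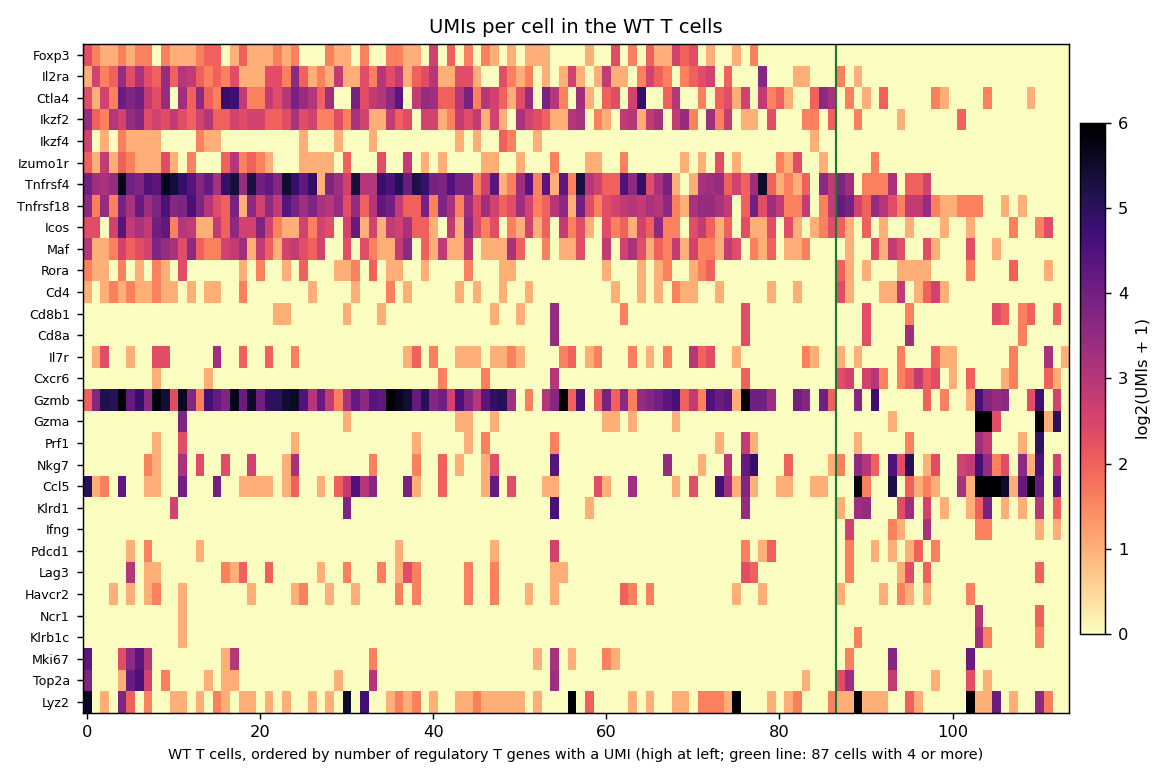
UMIs per cell, as log2(UMIs + 1), of 31 genes (rows) in the 114 WT T cells (columns), ordered by the number of regulatory T genes with a UMI, high at left; the green line separates the 87 cells with 4 or more from the 27 with 3 or fewer. Gzmb is spread over the cells at left, while Gzma is concentrated in a few cells at right.

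Cycling cells made up a larger share of the T cells than of the other classes. At least 3 of 20 G2 and M phase genes had a UMI in 13 of 114 T cells (11.4%, 6.21% to 18.7%), 14 of 404 NK cells (3.47%, 1.91% to 5.75%) and 157 of 3244 C1q-high droplets (4.84%, 4.13% to 5.64%). Thinned to 1000 UMIs, the shares were 8.93% of 112 T cells (4.36% to 15.8%), 2.74% of 402 NK cells (1.37% to 4.84%) and 0.929% of 3231 C1q-high droplets (0.627% to 1.32%), and the T and NK intervals then overlap. Of the 13 cycling T cells 12 carried at least 8 of the genes, and their median depth was 11350 UMIs. The 8 G2 and M genes at the minimum all stood at least 2-fold higher in T cells than in NK cells (median log2 ratio 1.43), against 6.62% of all 4350 genes. They are among the 20 genes that define the cycling cells, so their sums, Mki67 included, are not independent of the shares above. Mki67, the Ki-67 proliferation gene, stood at 205 CPM in T cells (169 to 246) and 59.0 CPM in NK cells (46.6 to 73.8). The share with at least 3 of 20 S phase genes was 26.3% in T cells, 13.4% in NK cells and 20.7% in C1q-high droplets, and after thinning 9.82%, 2.24% and 0.774%. Of the 13 cells, 1 was CD8, 8 were CD4 and 4 had neither, from classes of 16, 40 and 58 cells. A class call needs only 1 lineage UMI and so depends on depth. The medians were 3653.5 UMIs in CD8 cells, 4231 in CD4 cells and 3602 in cells with neither. The part of depth in this split was not tested. At least 4 regulatory T genes were carried by 9 of the 13, against 76.3% of all T cells. Cycling cells were 10.3% of the T cells with 4 or more (4.84% to 18.7%) and 14.8% of those with 3 or fewer (4.19% to 33.7%), with overlapping intervals. Cells of high depth are also the ones in which doublets would fall, and doublets among them were not tested.

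The antibody tags, which the rule did not use, gave a protein readout. A tag is an oligonucleotide on an antibody, and its barcode is shown because it is what the tag counts rest on, copied from the deposited feature list, 15 bases in capitals. The list names the tags TotalSeqC, a reagent made for 5′ kits, while the labels describe a 3′ kit, and which of these holds could not be settled from the files.
CD11c: GTTATGGACGCTTGC
Ly6G: ACATTGACGCAACTA
Ly6C: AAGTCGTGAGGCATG

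The CD11c tag had a median of 2 UMIs in T cells (0 to 149), 8 in NK cells and 28 in C1q-high droplets. The Ly6G tag, a neutrophil marker, had a median of 1 in T cells, 1 in NK cells and 17 in C1q-high droplets. The Ly6C tag had a median of 198.5 in T cells (quartiles 154.5 and 249, range 75 to 3882), 189 in NK cells and 1841.5 in C1q-high droplets. Ly6c2 RNA, whose protein the Ly6C tag reads, was found in 57 of 114 T cells at 604 CPM and in 92.1% of C1q-high droplets at 2434 CPM. T cells and NK cells thus had like Ly6C tag medians, well under that of C1q-high droplets. At or above the lower quartile of C1q-high droplets, 800.5 UMIs, lay 8 T cells and 23 NK cells. By subset, the median Ly6C tag was 183.5 in CD8 cells and 201 in CD4 cells, with overlapping quartiles.

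**Figure D5:**
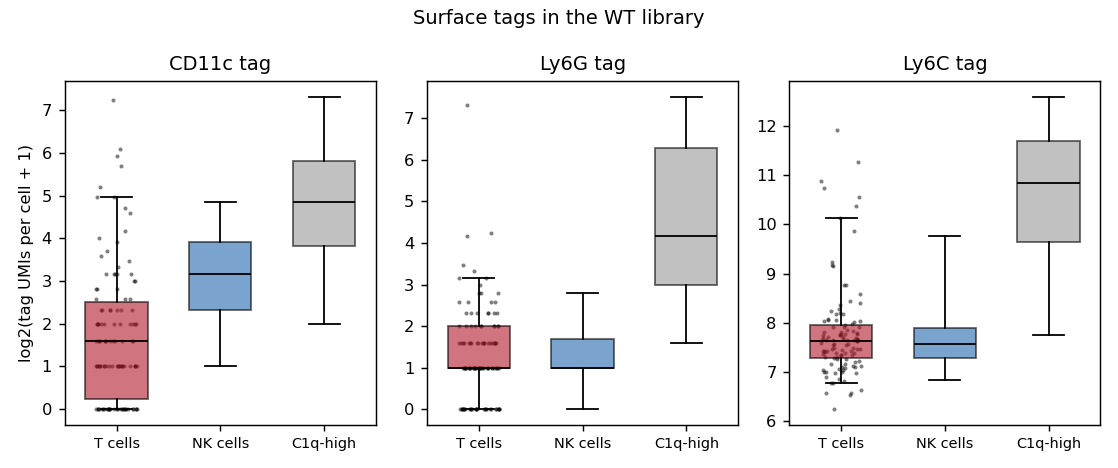
Tag UMIs per cell, as log2(UMIs + 1), for CD11c, Ly6G and Ly6C in WT T cells (points and box), NK cells and C1q-high droplets; boxes show the median and quartiles and whiskers the 5th and 95th percentiles. The T cell boxes lie under those of the C1q-high droplets for all 3 tags, with 8 T cells at or above 800.5 Ly6C UMIs.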

How the data were processed

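Droplet 3′ RNA and antibody tag libraries of pooled VISTA KO and WT tumor cells were used, 1 library of each kind per group. The deposited matrices hold whole-number UMI counts per gene or tag and barcode, made by the authors with Cell Ranger 5.0.0, per the file headers. The build mm10 and Seurat 4.0 are named in the submitters' processing notes; the cell-calling settings were not given there.

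Kept barcodes, T cells, NK cells (at least 3 UMIs of Ncr1, Klrb1c and Klre1, at most 4 T marker and 2 C1q UMIs) and C1q-high droplets (at least 10 C1q UMIs) were chosen from raw counts. The members and the 26 gene lists were chosen with earlier results of these data known, and the split at 4 regulatory T genes after their values were seen. UMIs were summed per class and scaled to CPM, and ratios were taken on log2 after adding 1 UMI to each sum. A 2-fold difference was the size counted, over genes with at least 50 UMIs (T against NK cells) or 20 UMIs (within T cells); no test was run, since cells of 1 library are not replicates. A gene at 0 was set to a floor of 3 counts over the class. Shares have exact Clopper-Pearson intervals and CPM exact Poisson intervals at 95%, which cover counting error only. For shares across depths each cell was thinned to 1000 UMIs (seed 7), leaving out 2 T cells, 2 NK cells and 13 C1q-high droplets below that.

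Genes were named by rank of the ratio (12 each way against NK cells, 8 within T cells, found in at least 10% of cells of the higher class; leaving out the 7 rule genes, Xist, Y-linked genes, those of mitochondria and ribosomes, and Gm or Rik models) or as members of the lists. The class sums and ratios were tested on simulated data. Promoters were read from RefSeq tables on GRCm38.p6, from which gene coordinates also come. Alternatives were other limits of the rule, other UMI minimums, thinning, leaving out cells with NK or high Lyz2 UMIs, and, chosen after seeing the data, subsets by 2 or more lineage UMIs and lists without the genes that define the split. Python 3.11.15, numpy 2.4.6, scipy 1.17.1, pandas 2.3.3 and matplotlib 3.10.9 were used.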

Additional observations from a re-analysis of the deposited data

How the results depend on the processing

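No paired analysis was possible because VISTA KO and WT were 1 library each, and for the same reason no library could be left out. The T cell share of kept VISTA KO barcodes was 0.0264% with 0 C1q UMIs, and that of WT barcodes 0.755% with 0 C1q UMIs and 0.795% with at least 10 T marker UMIs. The CD8 share was 8.04% after thinning and 4.39% by Cd8a alone. The share with at least 4 regulatory T genes was 40.2% after thinning, which lowers the genes seen per cell, and 65.8% at 5 or more genes. Counts of genes at least 2-fold higher and lower in T than in NK cells were 947 and 757 at a minimum of 10 UMIs, and 75 and 81 at 200. In CD8 against CD4 cells they were 344 and 320 at 10 UMIs and 2 and 6 at 200. There, 67 were higher with 0 C1q UMIs and 231 lower with no C1q limit. Besides these 17 values, 87 alternative values of the main comparisons stayed within their interval, or within 1.5 times for counts, and 0 reversed. For single genes and shares within the subsets 48 values moved, 62 did not and 1 reversed: the log2 ratio of Gzmc between T cells with 3 or fewer and 4 or more regulatory T genes was -2.86 without cells that had an NK UMI, against 3.02 with them. Depth is the main limit: at a median of 3676 UMIs a cell without a UMI of Cd4, Cd8a or Foxp3 is not shown to lack the RNA, and classes of 16 or 27 cells can rest on 1 cell. Antibody tag counts have no isotype control used here. Free RNA and doublets were not removed.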

Other observations

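Several genes outside the comparisons above were also unevenly spread over the WT T cells. Epcam, an epithelial adhesion gene, had 25 UMIs in 18 T cells and 3 in NK cells. Of its T cell UMIs 0 lay in cells with 3 or fewer regulatory T genes, which made up 23.7% of the T cells. Itgb7, the beta chain that pairs with CD103, stood at 63.4 CPM in cells with 3 or fewer regulatory T genes and 256 CPM in cells with 4 or more. Bhlhe40, a factor of activated T cells, had a log2 ratio of 1.78 between cells with 3 or fewer and cells with 4 or more, while Nr4a1, an early gene of T cell receptor signals, had -1.81. Of the 12 costimulation and activation genes at the minimum, 2 (Cd7 and Cd226) stood at least 2-fold higher in cells with 3 or fewer and 6 lower. Of those 6, Tnfrsf4, Tnfrsf18 and Il2ra define the split, and without such genes 3 of 9 stood lower. Csf2 had 9 UMIs in T cells, all in 1 cell.

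Of the 16 WT barcodes with at least 5 T marker UMIs and more than 2 C1q UMIs, 15 had a UMI of at least 4 regulatory T genes. Of the 14 C1q-high droplets with at least 4 regulatory T genes, 11 had at least 5 T marker UMIs. Basophil and mast cell markers, 6 genes in all, were at 0 in T cells.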
